A study of Mus musculus with 188 samples.

Results

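Cell-free hemoglobin (Hb) was given to mouse brain slice cultures at 2 concentrations, 200 and 400 μM. From the 188 libraries of the series, 40 bulk RNA libraries are described here. They are all those labelled as free Hb alone at either concentration in sequencing batches 2 and 3. They were chosen by their treatment labels (Hb_200uM_24h, Hb_400uM_24h, Hb_200uM_48h and Hb_400uM_48h) and by no measured value. The treatment protocol in the labels names 200 μM Hb only, so the 400 μM of 20 libraries rests on their titles and treatment labels, which were followed. The question they address is whether raising the Hb concentration changed the transcriptome of the slices, at 24 h, at 48 h or over both times.

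Free Hb that leaves ruptured red cells releases heme, and heme brings iron and oxidants into brain tissue. Cells answer heme through heme oxygenase, which opens the ring and frees the iron, through ferritin and ferroportin, which store and export that iron, and through the transcription factor NRF2, which binds antioxidant response elements near genes of glutathione and thioredoxin metabolism. Hypoxia-inducible factors (HIF) bind hypoxia response elements near genes of glycolysis and blood vessel growth, and their hydroxylases need iron and oxygen.

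Short stretches upstream of genes that the results turn on are printed here because they hold the core letters of these elements. They were read on the strand of each gene from RefSeq promoters on GRCm38, and capitals mark the match. For NRF2 targets the letters searched were TGACNNNGC on either strand.
Gclm, chr3:122245407-122245447: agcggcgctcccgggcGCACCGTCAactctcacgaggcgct
Prdx1, chr4:116685450-116685490: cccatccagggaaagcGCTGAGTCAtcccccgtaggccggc
G6pdx, chrX:74428913-74428953: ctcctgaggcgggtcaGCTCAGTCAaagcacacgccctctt
Gsta3, chr1:21240448-21240488: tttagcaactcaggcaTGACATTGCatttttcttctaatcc
For HIF targets the letters searched were ACGTG on either strand.
Car9, chr4:43506992-43507025: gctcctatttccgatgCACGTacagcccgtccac
Ankrd37, chr8:46000071-46000100: cccagcagtACGTGcctagctcggctcgca
Pgk1, chrX:106186934-106186970: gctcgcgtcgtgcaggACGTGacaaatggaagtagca
G6pdx and Ankrd37 lie on the minus strand and the other genes on the plus strand. The matches begin 134 bases before the annotated start of Gclm, 133 before Prdx1, 57 before G6pdx, 121 before Gsta3, 18 before Car9, 241 before Ankrd37 and 150 before Pgk1, where the start is that of RefSeq. In GENCODE M21 the printed stretches of Car9, G6pdx and Ankrd37 lie inside the gene. In the 250 bases upstream of the start, the first motif was found in 7 of the 24 NRF2 targets with a RefSeq promoter (29.2%) and in 11.5% of 27025 genes. The second was found in 12 of 15 HIF targets (80%) and in 18.5% of the same genes. These matches are descriptions of letters and not measured binding sites.

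Slices were cut coronally from the brains of male and female wild-type C57BL/6J mice of 6 to 8 weeks, 2 slices shared an insert, and Hb was added on day 7 of culture. The Hb was stroma-free human protein, and every group, controls included, had been grown with serum and then in serum-free medium. Each of the 4 Hb groups held 10 libraries, 8 from batch 2 and 2 from batch 3, with 5 libraries lettered F and 5 lettered M. Vehicle controls of the same batches were 10 libraries at 24 h and 9 at 48 h. The labels do not say whether libraries of a group came from separate animals, so p-values measure the spread between these libraries, which may in part be technical.

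The 40 Hb libraries held between 24549986 and 54174784 counts, and their group medians lay between 42654266 and 47386490. Brain markers were present in each Hb library, with Mbp, myelin basic protein, at 7884 CPM or more and Snap25, a synaptic protein of neurons, at 5.93 CPM or more. Sex letters matched the Y-linked genes in all 59 libraries, and no pair within a group and batch was alike within sampling noise. Library names also carry a round (E1 or E2), and a code, whose meaning the labels do not give. Of the 40 libraries, 35 carry a code that occurs at both concentrations, so libraries treated here as separate may be related. Round E2 supplied 2 of 10 libraries at 200 μM and 4 of 10 at 400 μM at 24 h, and 3 of 10 at both concentrations at 48 h. A library of Hb_200uM_24h (replicate 10) and one of Hb_400uM_24h (replicate 3), which share the name code E1_M4, stood apart on the second principal component, at -51.3 and -45.8 against -26.7 to 38.9 in the other 38 libraries. Another Hb library of that code, Hb_200uM_48h replicate 6, lay at -13.0, inside that range. The 2 libraries that stood apart came from batches 3 and 2. All values below are TMM-scaled CPM, counts of a gene relative to the size of its library. Median steps of lists at 24 h, and the 24 h steps of genes singled out, are given with and without this pair of libraries. Medians over both times include the pair unless stated.

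No gene passed the test between 400 and 200 μM Hb. Over both times, with time and batch as terms, edgeR's quasi-likelihood test called 0 of 15939 genes (0%) at an adjusted p under 0.05, and the smallest adjusted p was 1. At an unadjusted p under 0.05 there were 220 genes (1.38%), where a uniform spread of p would give 5%. The share of genes was 3.63% at p under 0.1 and 13.7% at p of 0.9 or more. These p-values thus leaned high against a uniform spread, and the cause was not tested. DESeq2 called 0 genes and had 262 at an unadjusted p under 0.05. At 24 h alone the quasi-likelihood test called 0 genes (0%), with 166 unadjusted (1.04%) and 200 in DESeq2, which called 0. Without the pair that stood apart it called 0, with 289 unadjusted. At 48 h it called 0 genes (0%), with 182 unadjusted (1.14%) and 208 in DESeq2, which also called 0. The interaction of concentration and time, which asks whether the step differed between 24 and 48 h, called 0 genes (0%) with 133 unadjusted (0.834%), and DESeq2 called 0 with 152 unadjusted.

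A missing call does not show equality, so the intervals matter. The 95% interval of the step over both times lay within 1.5-fold in either direction for 14529 of 15939 genes (91.2%). The same held for 80.7% of genes at 24 h and for 82.3% at 48 h. On the log2 scale, 98.6% of genes had an interval inside -1 to 1 over both times, and the median standard error was 0.0645. The median step over all genes was 0.00 on the log2 scale over both times, with 51% of genes above 0. In the same model, 2566 genes (16.1%) passed between 48 and 24 h and 1563 genes (9.81%) passed between batches 3 and 2, so the 40 libraries made calls for other terms. Rounds E2 and E1 differed at 8073 genes (50.6%) when round was added as a term.

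**Figure D1:**
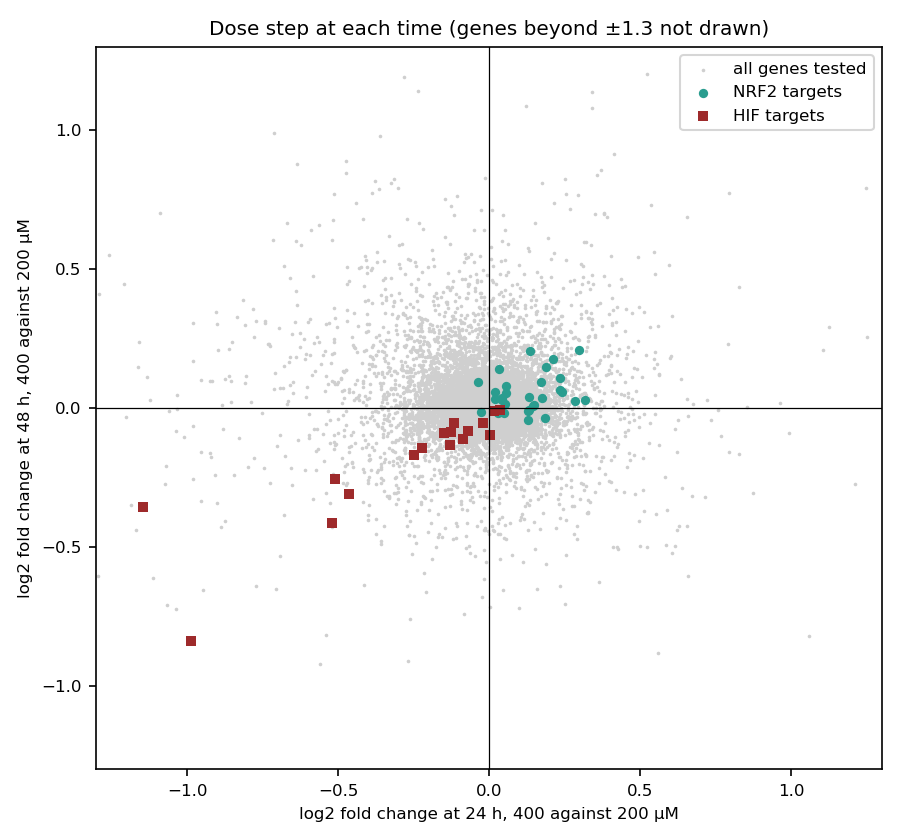
Each point is 1 of 15939 genes, with its log2 difference between 400 and 200 μM Hb at 24 h on the horizontal axis and at 48 h on the vertical axis. Points gather around 0 on both axes, none passed the test at either time, and 13 genes beyond 1.3 in either direction are not drawn.

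Measured against vehicle, both concentrations altered a small set of genes, and the number called was larger at 400 μM at each time. At 24 h, 200 μM Hb raised 19 genes and lowered 3 of 16183 (0.136%), and 400 μM raised 49 and lowered 6 (0.34%). At 48 h, 200 μM raised 31 and lowered 7 (0.235%), and 400 μM raised 50 and lowered 11 (0.377%). At an unadjusted p under 0.05 the shares were 3.35% and 5.69% at 24 h and 4.18% and 6.1% at 48 h. Both concentrations share the same control libraries, and the difference between these counts was not itself tested. The step between the concentrations is the direct comparison, and it called 0 genes.

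Of the genes the study names, the redox genes Gclm, Gstm1 and Nqo1 were above control at both concentrations, and their step from 200 to 400 μM was small. Gclm (ENSMUSG00000028124) encodes the modifier subunit of glutamate-cysteine ligase, the enzyme that sets the pace of glutathione synthesis. At 24 h it ran from 91.5 to 142 CPM in controls (median 118), from 138 to 216 at 200 μM (median 162) and from 163 to 241 at 400 μM (median 198). At 48 h it ran from 83.9 to 140.1 CPM in controls (median 119), from 148 to 226 at 200 μM (median 173) and from 147 to 228 at 400 μM (median 187). Every library at 400 μM exceeded every control of its time, the same held at 200 μM at 48 h, and the concentrations overlapped at both times. Gclm rose at both concentrations and times against control, by 0.55 and 0.79 on the log2 scale at 24 h and by 0.62 and 0.73 at 48 h (largest adjusted p = 7.82e-05). The step over both times was 0.17 ± 0.061 on the log2 scale (standard error), or 1.12-fold with a 95% interval of 1.03 to 1.23, at p = 0.00847 before and 1 after adjustment. At 24 h the step was 0.23 (0.26 without the pair that stood apart) and at 48 h 0.11, and the interaction of -0.13 had an interval of -0.37 to 0.12. Gclm lies at chr3:122245557-122270732 on GRCm38 and overlaps a predicted gene on the same strand.

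Gstm1, a glutathione S-transferase with close relatives in its family, ran at 24 h from 174 to 278 CPM at 200 μM (mean 212 ± 33.2, SD, n = 10) and from 177 to 324 at 400 μM (mean 247 ± 45.6). The ranges at 48 h were 233 to 372 CPM at 200 μM (mean 302 ± 43) and 252 to 418 at 400 μM (mean 342 ± 58.8). Controls reached 206 CPM at 24 h and 249 at 48 h, so the lowest Hb libraries overlapped them, except at 400 μM at 48 h. The step over both times was 1.14-fold (interval 1.03 to 1.27, p = 0.0115 before and 1 after adjustment). Against control Gstm1 rose at 400 μM at 24 h (adjusted p = 0.00314) and at both concentrations at 48 h (0.00544 and 2.65e-05), and at 200 μM at 24 h its log2 difference was 0.31 at an adjusted p of 0.752.

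Nqo1, a quinone reductase and a standard readout of NRF2, ran at 24 h from 13.6 to 24.8 CPM at 200 μM (median 14.8) and from 14.8 to 21.4 at 400 μM (median 19.7). The ranges at 48 h were 12.8 to 27.1 CPM (median 18.8) and 14.3 to 29.7 (median 22.4). The median was higher at 400 μM at both times, while the highest library at 24 h was one of 200 μM. Nqo1 rose against control in all 4 comparisons, by 0.62 to 1.02 on the log2 scale (largest adjusted p = 0.0206). Its step was 1.12-fold with an interval of 0.988 to 1.28.

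Heme and iron genes showed wide spread within each group. Hmox1, inducible heme oxygenase, ran at 24 h from 668 to 2538 CPM in controls (median 1405), from 1044 to 3529 at 200 μM (median 2045) and from 1387 to 4252 at 400 μM (median 2738). At 48 h the control, 200 and 400 μM libraries reached 3257, 4790.0 and 5425 CPM, with medians of 1269, 2492 and 3070.0. All 3 groups overlapped at each time. The step was 1.11-fold with an interval of 0.884 to 1.4, so a rise by up to 1.4-fold lies inside the interval, and Hmox1 missed the threshold against control in every comparison (smallest adjusted p = 0.144). Within round E2 its log2 step was -0.12, below 0.

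Slc40a1, ferroportin, the iron exporter of the cell membrane, ran at 24 h from 11.4 to 26.6 CPM in controls, from 20.9 to 52.7 at 200 μM (median 34.6) and from 24.9 to 83.8 at 400 μM (median 41.4). Libraries of 48 h ran from 28.7 to 74.2 CPM at 200 μM (median 37.6) and from 24 to 72.9 at 400 μM (median 47.5). It rose against control in all 4 comparisons, by 0.95 to 1.32 on the log2 scale (largest adjusted p = 0.0383), and the concentrations overlapped almost throughout. Its step was 1.17-fold over both times (interval 0.958 to 1.44), with 0.36 on the log2 scale at 24 h (0.41 without the pair that stood apart) and 0.10 at 48 h.

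Slc48a1, a heme transporter of the endolysosome that overlaps Hdac7 on the other strand, had medians of 309 CPM at 200 μM and 369.6 at 400 μM at 24 h, and of 336 and 337 at 48 h. It rose at 400 μM at 24 h (adjusted p = 0.0152) and at both concentrations at 48 h (0.0221 and 0.0153). The step over both times was 1.05-fold with an interval of 0.969 to 1.15. Fth1, the ferritin heavy chain and the most abundant member of the iron list, had a step of 1.08-fold with an interval of 0.972 to 1.19.

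None of the receptor genes passed between the concentrations. Cd163, the Hb-haptoglobin receptor of macrophages, stayed between 1.42 and 8.85 CPM in the Hb libraries and had a step of 0.936-fold (interval 0.708 to 1.24). Lrp1, the receptor for heme-hemopexin, had a step of 1.05-fold (interval 0.922 to 1.2), and 1 library of Hb_400uM_24h at 3169 CPM, against 1564 in the next, set its sign, since the log2 step was -0.01 without it. Gpr84, a receptor of activated myeloid cells, had a step of 1.18-fold (interval 0.902 to 1.54). Tnfrsf1a, a receptor for tumor necrosis factor, was measured more tightly, with a step of 1.01-fold and an interval of 0.971 to 1.06. None of these 4 genes passed against control at either concentration and time.

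**Figure D2:**
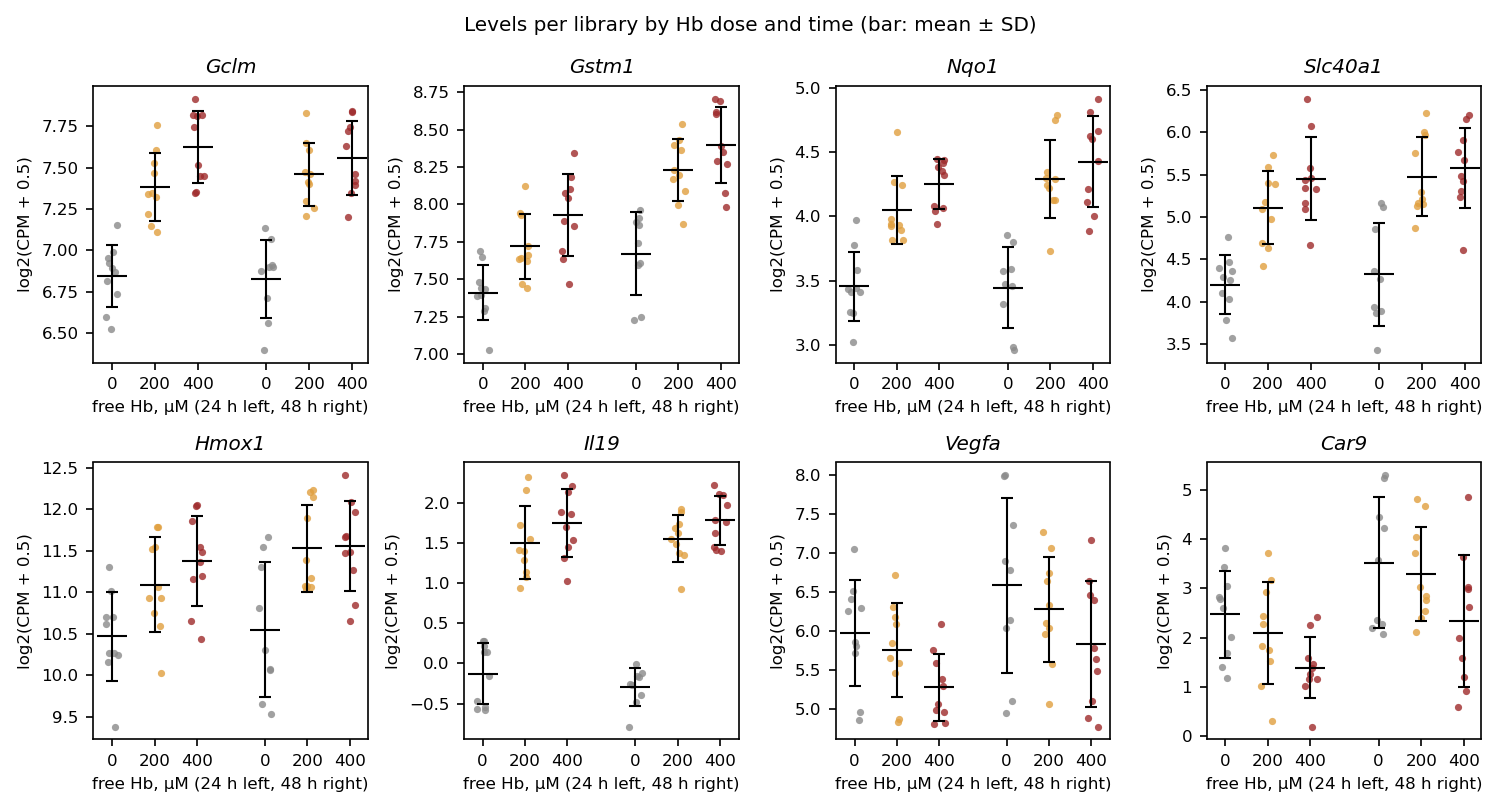
Levels of 8 genes are plotted per library as log2(CPM + 0.5), with controls, 200 and 400 μM Hb side by side at 24 h and 48 h. Il19 lies above every control of its time at both concentrations, the 200 and 400 μM libraries of every gene shown overlap, and Car9 and Vegfa spread widely in all groups.

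Genes with a large response to Hb against control had no step that passed either. Il19, a cytokine of the interleukin-10 family, stayed at or under 0.711 CPM in controls at 24 h and at or under 0.496 at 48 h. It ran from 1.42 to 4.5 CPM at 200 μM and from 1.53 to 4.57 at 400 μM at 24 h, and from 1.4 to 3.3 and from 2.13 to 4.15 at 48 h. Every Hb library lay above every control of its time, and the concentrations overlapped. Its log2 rise against control was 2.46 and 2.74 at 24 h and 2.90 and 3.17 at 48 h (largest adjusted p = 1.81e-09), and its step of 1.21-fold had an interval of 0.996 to 1.47. Cyp1a1, a xenobiotic oxidase driven by the aryl hydrocarbon receptor, rose against control by 1.70 to 2.58 on the log2 scale and had a step of 0.862-fold (interval 0.628 to 1.18). Its level was low. At 24 h its highest libraries were the pair that stood apart, at 1.71 CPM at 200 μM (next 0.765) and 1.33 at 400 μM (next 0.680). Pi15, a secreted protease inhibitor, fell against control at both concentrations, to medians of 5.39 and 4.7 CPM at 24 h from 11.2 in controls, with a step of 0.932-fold (interval 0.786 to 1.1). Cyp1a1 and Pi15 were chosen after their values were seen.

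As a group, the NRF2 targets lay slightly higher at 400 μM, and none of them passed the test. Of 30 listed and tested genes, 29 had a log2 step above 0 over both times, Cbr3 being the exception at -0.02, where 51% of all genes did. The median step of the list was 0.08 and the members ranged from -0.02 to 0.25. Gclm and Gstm1, 2 of 30, had an unadjusted p under 0.05, beside 1.38% of all genes. At 24 h, 28 of 30 were above 0 with a median of 0.13, where 47% of all genes were above 0 and their median was -0.01, and without the pair that stood apart 28 of 30 with a median of 0.16. At 48 h, 23 of 30 were above 0 with a median of 0.04, beside 53.2% of all genes. Members of such a list vary together across libraries, so their number above 0 is not a number of independent observations.

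Single members of the list had steps of at most 1.19-fold over both times. Srxn1, sulfiredoxin, which restores overoxidized peroxiredoxins, had a log2 step of 0.32 at 24 h (interval 0.02 to 0.61, p = 0.0357 before and 0.999 after adjustment) and of 0.03 at 48 h. Without the pair that stood apart, one of which held its highest level at 200 μM, the 24 h step was 0.40 (p = 0.00283 before and 0.999 after adjustment). Prdx1, a peroxide-reducing peroxiredoxin, had medians of 767 CPM at 200 μM and 945 at 400 μM at 24 h and of 903 and 912 at 48 h, and a step of 1.11-fold over both times (interval 0.985 to 1.25). Gsta3, a glutathione S-transferase at low level in these slices, had the widest step of the list, 1.19-fold with a log2 interval of -0.04 to 0.54. G6pdx, the entry enzyme of the pentose phosphate pathway, had a step of 1.06-fold (interval 0.977 to 1.16).

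The direction of the list held in part across batches and rounds. In batch 2 alone the median was 0.08 with 30 of 30 members above 0, and in batch 3 alone, with 2 libraries a group, it was 0.04 with 18 of 30. Round E1 alone gave 0.05 with 26 of 30 and round E2 alone 0.19 with 27 of 30. Without the pair of libraries that stood apart, 29 of 30 were above 0 with a median of 0.08. The mean level of the list per library, as log2(CPM + 0.5), was between 6.72 and 6.99 in controls at 24 h, between 7.07 and 7.37 at 200 μM and between 7.14 and 7.42 at 400 μM. At 48 h it was between 6.64 and 7.02 in controls, between 7.11 and 7.54 at 200 μM and between 7.16 and 7.55 at 400 μM. Each Hb library thus lay above each control of its time, and the 2 concentrations overlapped over most of their range.

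Against control, all 30 NRF2 targets were above 0 in each of the 4 comparisons. Of these, 9 rose at 200 μM and 16 at 400 μM at 24 h, and 13 and 16 rose at 48 h, in fits where at most 0.377% of all genes were called. The median log2 difference from control was 0.32 at 200 μM and 0.43 at 400 μM at 24 h, and 0.41 and 0.41 at 48 h. The list was written with earlier results of these data known, and it includes Nqo1, Gclm, Gstm1, Slc48a1 and Hmox1, which the study names.

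**Figure D3:**
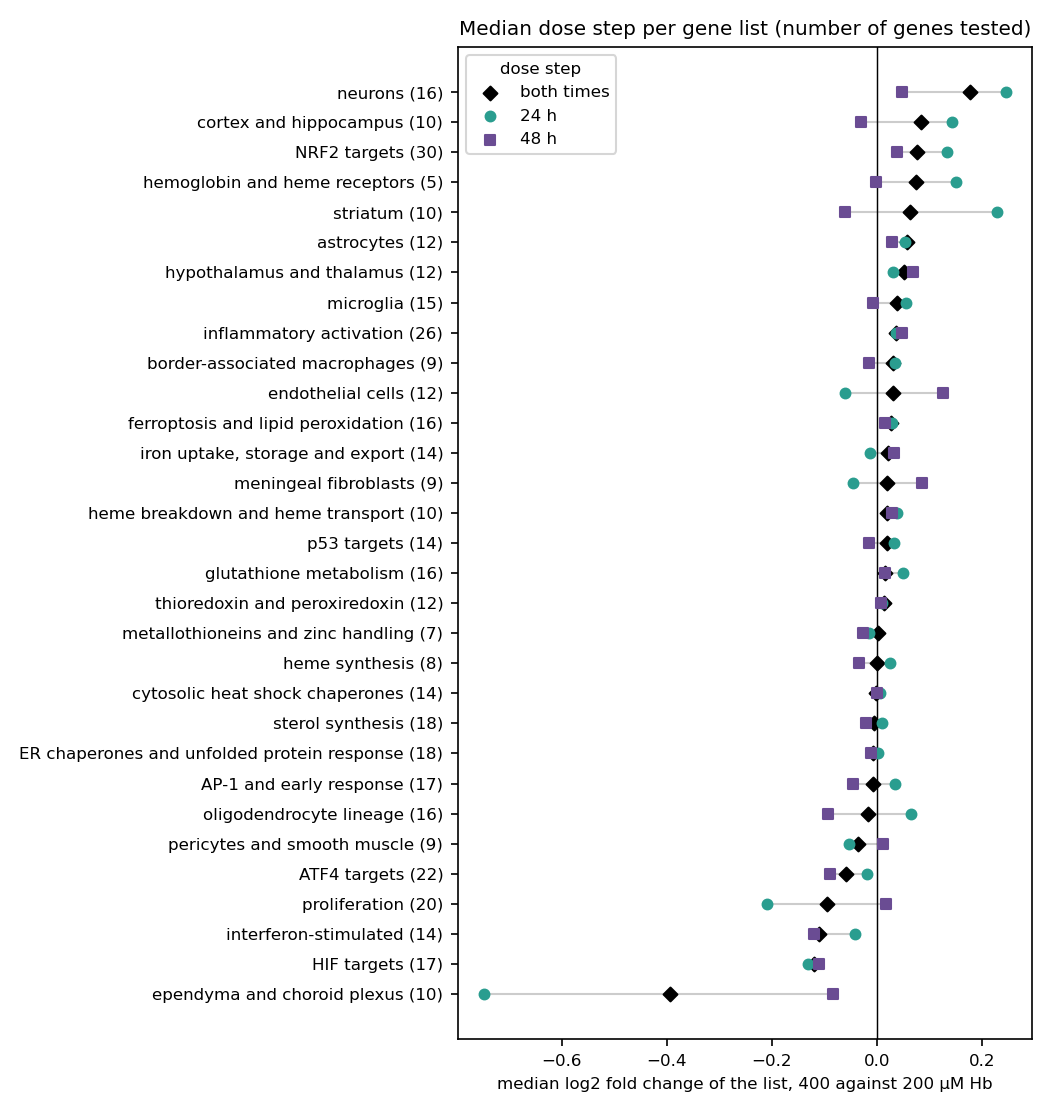
Median log2 difference between 400 and 200 μM Hb of each gene list, over both times, at 24 h and at 48 h. The NRF2 targets lie at 0.08, 0.13 and 0.04, the HIF targets at -0.12, -0.13 and -0.11, and ependyma and choroid plexus vary most, at -0.39, -0.75 and -0.08.

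HIF targets lay lower at 400 μM, again with none that passed. Of 17 genes, 15 had a step below 0 over both times, where 49% of all genes did, and the median was -0.12. At 24 h, 14 of 17 were below 0 with a median of -0.13, and at 48 h 17 of 17 with a median of -0.11, beside 53% and 46.8% of all genes. The 24 h values without the pair that stood apart were 14 of 17 and -0.13. The exceptions over both times were Ndrg1 and Pfkfb3, at 0.01 and 0.00. An unadjusted p under 0.05 was reached by 6 of the 17, all below 0, beside 1.38% of all genes. These members were Ankrd37, Car9, Pgk1, Ldha, Vegfa and Eno1.

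Car9, carbonic anhydrase 9, which balances acid outside hypoxic cells, had the largest step. At 24 h it ran from 1.75 to 13.7 CPM in controls (median 5.97), from 0.731 to 12.6 at 200 μM (median 3.7) and from 0.644 to 4.85 at 400 μM (median 2). At 48 h it ran from 3.68 to 38.8 CPM in controls (median 11.4), from 3.85 to 27.7 at 200 μM (median 7.11) and from 1 to 28.4 at 400 μM (median 4.55). Medians were lower at 400 than at 200 μM and lower at 200 μM than in controls at both times, and all groups overlapped. The step over both times was 0.531-fold, with an interval of 0.326 to 0.864 and p = 0.0122 before and 1 after adjustment. Against control it did not pass in any comparison.

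Vegfa, the main growth factor of blood vessels, ran at 24 h from 28 to 104 CPM at 200 μM (median 53.4) and from 27.5 to 67.3 at 400 μM (median 35.9), beside a control median of 66.8. At 48 h the ranges were 33 to 153 CPM (median 74) and 26.9 to 144 (median 52), beside a control median of 109. The lowest libraries of the 3 groups were alike and the medians differed. The step was 0.724-fold with an interval of 0.552 to 0.949 (p = 0.0207 before adjustment).

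Glycolytic members had narrower steps. Ldha, lactate dehydrogenase A, had medians of 296 and 262 CPM at 24 h and of 336 and 322 at 48 h, a step of 0.88-fold (interval 0.793 to 0.977). Pgk1, phosphoglycerate kinase, stood at 0.929-fold (interval 0.877 to 0.985) and Eno1, enolase, at 0.912-fold (interval 0.841 to 0.99). Aldoa, the most abundant member, stood at 0.968-fold (interval 0.919 to 1.02). Ankrd37, at a mean of 0.667 CPM, had a step of 0.601-fold (interval 0.419 to 0.864), and it overlaps Ufsp2 and Lrp2bp on the other strand. Car9, Vegfa, Ldha, Pgk1 and Eno1, like Srxn1, Prdx1, Gsta3 and G6pdx above, were named after their values were seen.

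Within batch 2 alone 16 of the 17 HIF targets were below 0 with a median of -0.10, and within batch 3 alone 16 of 17 with a median of -0.20. Round E1 alone gave a median of -0.10 with 2 above 0, round E2 alone -0.13 with 1 above 0, and leaving out the pair of libraries that stood apart gave -0.12 with 2 above 0. The list's mean level per library lay between 5.33 and 6.26 in controls at 24 h (median 5.81), between 5.29 and 6.22 at 200 μM (median 5.78) and between 5.30 and 5.85 at 400 μM (median 5.53). At 48 h the medians were 6.22, 6.03 and 5.92. These ranges overlap at each time, and the low ends of the groups at 24 h are nearly equal. Against control the quasi-likelihood test called 0 of 17 HIF targets in each of the 4 comparisons, and the median log2 difference was -0.04 and -0.13 at 24 h and -0.12 and -0.25 at 48 h.

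**Figure D4:**
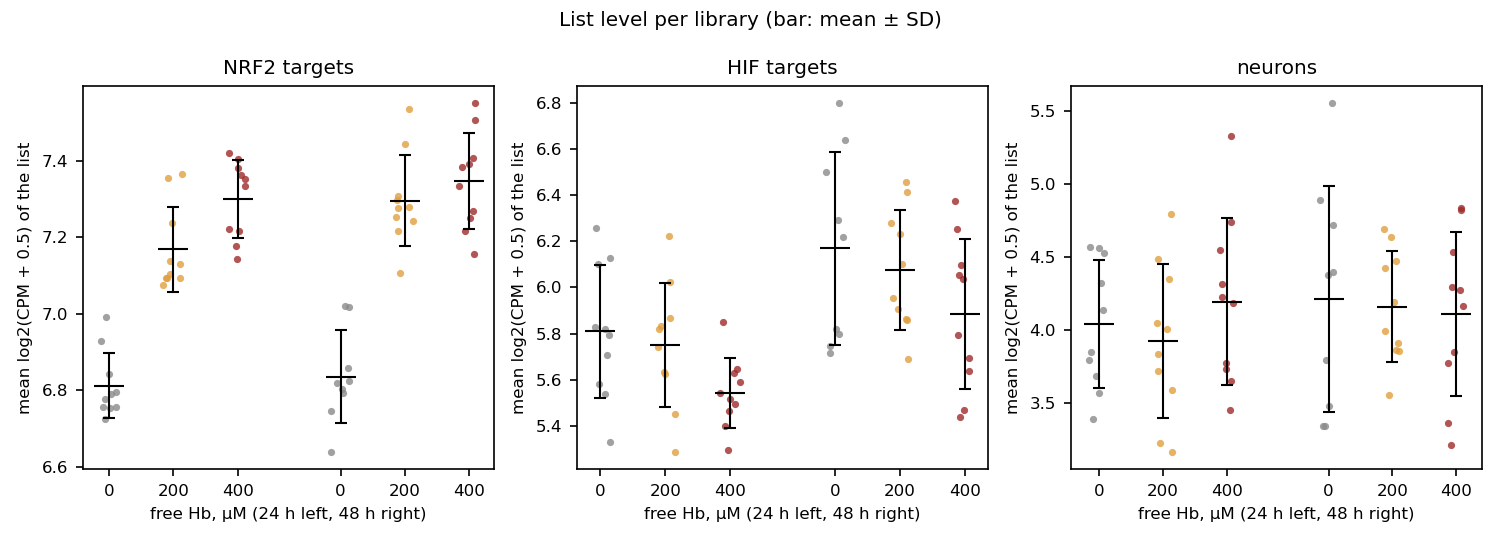
Mean log2(CPM + 0.5) of the NRF2 targets, the HIF targets and the neuronal markers in each library, by concentration and time. NRF2 levels at 200 and 400 μM lie above every control, HIF levels overlap in all groups with lower medians at 400 μM, and neuronal levels overlap in all groups.

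No gene passed over both times, so the 5 genes with the smallest p in each direction and a mean of at least 1 CPM are given as values only. On the higher side they were Prr16, Kcna3, Fbxl20, Gclm and Ikbkg. Prr16, a regulator of cell size, ran at 48 h from 0.917 to 2.07 CPM at 200 μM and from 1.42 to 2.38 at 400 μM, a step of 1.23-fold over both times (interval 1.1 to 1.38, p = 0.000492 before and 1 after adjustment). Kcna3, a voltage-gated potassium channel, had a step of 1.2-fold (interval 1.08 to 1.34), and Fbxl20, an F-box protein of ubiquitin ligases, one of 1.06-fold (interval 1.02 to 1.1).

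Ikbkg, the regulatory subunit of the IκB kinase complex, overlaps G6pdx on the opposite strand, and reads of the pair cannot be told apart without strand. It rose against control in all 4 comparisons, by 0.20 to 0.36 on the log2 scale, and had a step of 1.04-fold (interval 1.01 to 1.07). All 10 libraries of each Hb group at 48 h lay above the controls, at 65.9 CPM or more against at most 62.5.

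On the lower side were Dmac1, Mrpl23, Pfkl, Ddit4 and Galk1. Pfkl, the liver-type phosphofructokinase of glycolysis, ran at 24 h from 23 to 67.3 CPM at 200 μM (median 47.4) and from 25.6 to 53.2 at 400 μM (median 35.4). Its ranges at 48 h were 43.4 to 80.1 CPM (median 56.2) and 31.1 to 60.8 (median 50.3). Its step was 0.797-fold (interval 0.687 to 0.925, p = 0.00376 before and 1 after adjustment). On the log2 scale the step was -0.34 at 24 h (-0.37 without the pair that stood apart) and -0.32 at 48 h, and the interaction of 0.02 had an interval of -0.42 to 0.45.

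Ddit4, an inhibitor of mTORC1 signaling that is induced by stress and hypoxia, had medians of 74.1 CPM at 200 μM and 66.7 at 400 μM at 24 h and of 72.1 and 66.1 at 48 h. Its step was 0.892-fold (interval 0.827 to 0.961), it fell against control at 400 μM at 48 h (log2 difference -0.53, adjusted p = 0.00548), and at 200 μM the difference was -0.30 at an adjusted p of 0.642. The direct step between the concentrations at 48 h was -0.22 at an adjusted p of 1. Dmac1, an assembly factor of respiratory complex I, had a step of 0.929-fold (interval 0.886 to 0.973), Mrpl23, a mitochondrial ribosomal protein, one of 0.931-fold (log2 interval -0.17 to -0.04) and Galk1, galactokinase, one of 0.885-fold (0.816 to 0.959).

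**Figure D5:**
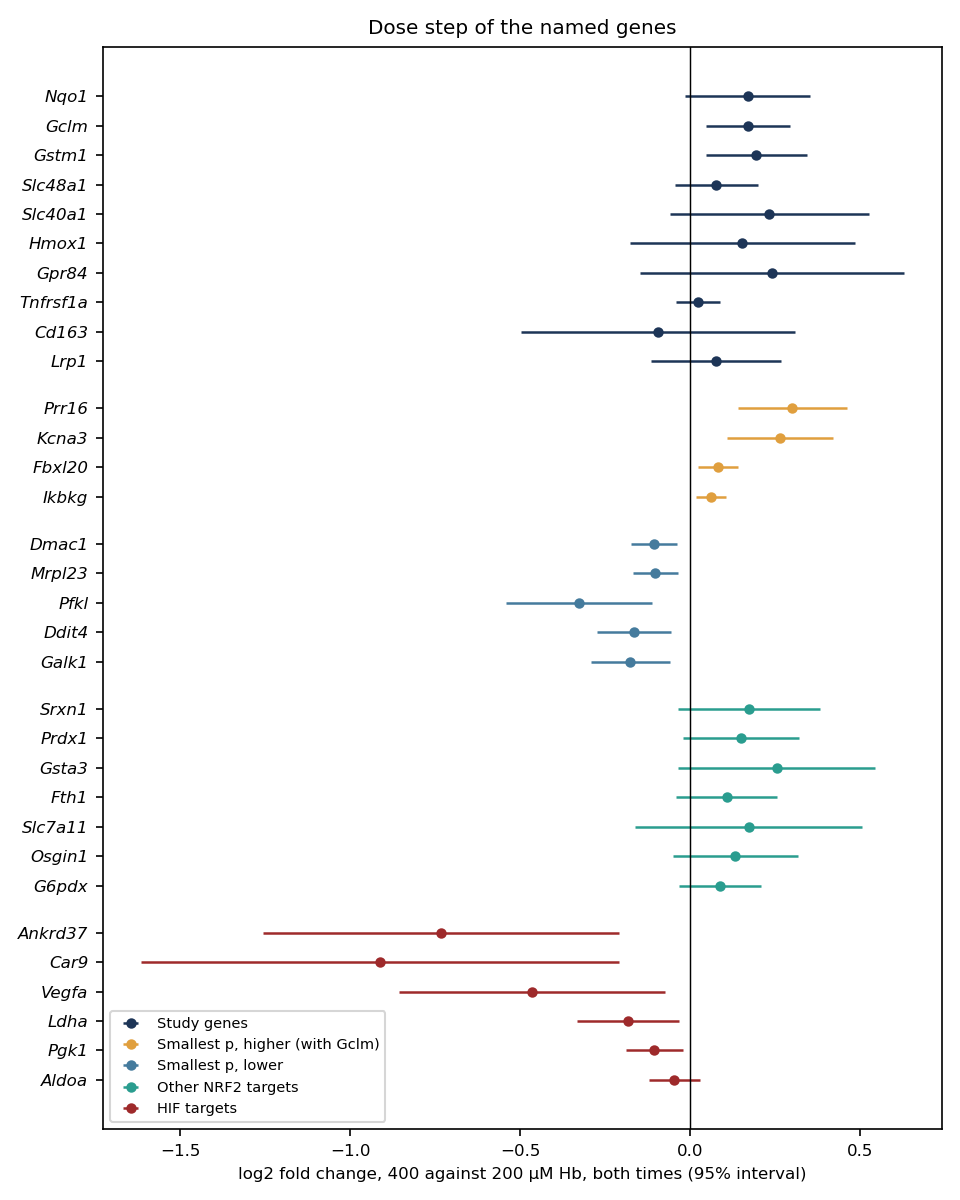
Log2 difference between 400 and 200 μM Hb over both times for the named genes, with 95% intervals as bars and a vertical line at 0. The NRF2 targets shown lie right of 0 and most of their intervals reach it, the HIF targets lie left of 0 with Car9 farthest at -0.91, and no gene passed after adjustment over 15939 genes.

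At single times the same rule named other genes, and none passed. At 24 h the higher side held Mef2b, Tmem43 and Tenm2 beside Gclm and Kcna3, and the lower side Iqgap2, Xxylt1, Rfc2 and Gpx7 beside Dmac1. Tenm2, a teneurin of neuronal contacts, had a log2 step of 0.79 (interval 0.15 to 1.43), or 0.82 without the pair that stood apart, with 1 library of 400 μM at 8.01 CPM against a median of 1.98. At 48 h the higher side held Ddx4, Mtrf1, Atp5s and Zfp110 beside Prr16, and the lower side Pomc, Mif, Timm10b and Rnf122 beside Ddit4. Pomc, the precursor of melanocortins made in the hypothalamus, had a log2 step of -1.36, and 1 library of 200 μM stood at 13.1 CPM against a median of 0.862. For the interaction of concentration and time the rule named Atp5s, Zfp110, Pcgf6, Zfp82 and Zfp820 on the side of a higher step at 48 h and Mef2b, Med26, Car7, Cdyl2 and Pcdhb14 on the other. Mef2b had log2 steps of 0.21 at 24 h (0.24 without that pair) and -0.13 at 48 h (interaction p = 0.00186 before and 1 after adjustment). It overlaps Borcs8 on the same strand, so reads there may belong to either gene.

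The lists of heme and iron handling held no clear direction. In the list of heme breakdown and transport 7 of 10 genes were above 0 with a median of 0.02, and in the iron list 9 of 14 with a median of 0.02. Round E1 alone had 9 of 10 genes of heme breakdown and transport above 0 (median 0.05), and round E2 alone 2 of 10 (median -0.12). Blvrb, biliverdin reductase B, which acts downstream of heme oxygenase, had a step of 1.11-fold (interval 0.983 to 1.25). Heph, hephaestin, which oxidizes exported iron, had one of 0.866-fold (interval 0.739 to 1.01). Heme synthesis had 4 of 8 above 0, glutathione metabolism 9 of 16 and the thioredoxin and peroxiredoxin list 7 of 12, with medians of 0.00, 0.02 and 0.01.

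Other stress lists were close to the median of all genes over both times. Their medians were 0.00 for the cytosolic heat shock chaperones and metallothioneins, -0.01 for ER chaperones, sterol synthesis and AP-1 genes, 0.02 for p53 targets and 0.03 for ferroptosis genes. Some of these medians differed between subsets. Sterol synthesis had 18 of 18 above 0 in round E2 alone (median 0.13), 8 of 18 in round E1 alone (-0.00) and 2 of 18 in batch 3 alone (-0.10). The p53 targets had medians of 0.08, 0.00 and -0.12 in the same subsets, and the heat shock chaperones 0.08, 0.00 and -0.05. ATF4 targets, genes of amino acid supply and stress, had 18 of 22 below 0 with a median of -0.06. Asns, asparagine synthetase, chosen after its value was seen, had a step of 0.912-fold (interval 0.847 to 0.982). Within round E2 alone the ATF4 median was 0.08, above 0.

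Inflammatory genes had 19 of 26 above 0 with a median of 0.04, and Lcn2, lipocalin 2, their most abundant member, had a step of 1.02-fold (interval 0.814 to 1.28). Interferon-stimulated genes had 11 of 14 below 0 with a median of -0.11, but their median was 0.27 in batch 3 alone. In round E1 alone 7 of 14 were above 0 with a median of -0.01, and in round E2 alone 0 of 14 with a median of -0.32. Mx1, the member with the smallest p, had a step of 0.658-fold with an interval of 0.421 to 1.03, and its log2 step of -0.60 was -0.33 without replicate 4 of Hb_200uM_48h. S100a8, a calgranulin of neutrophils and activated myeloid cells and the 1 of 8 neutrophil markers that could be tested, had a step of 1.2-fold (interval 1.04 to 1.38, p = 0.0159 before and 1 after adjustment). It rose against control at 400 μM at 48 h (log2 difference 0.76, adjusted p = 0.0199).

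Markers of cell types were read beside the step, and none of them passed. In bulk RNA, fewer cells of a type and less RNA per cell cannot be told apart. Neuronal markers had 16 of 16 above 0 with a median of 0.18, 15 of 16 at 24 h (median 0.25) and 11 of 16 at 48 h (median 0.05). Without the pair of libraries that stood apart they had 14 of 16 with a median of 0.13 over both times, and 14 of 16 with a median of 0.18 at 24 h. Round E1 alone had 14 of 16 above 0 (median 0.19) and round E2 alone 10 of 16 (median 0.10). Against control, 5 of 16 at 200 μM (median -0.08) and 13 of 16 at 400 μM (median 0.21) were above 0 at 24 h. At 48 h these were 2 of 16 (median -0.24) and 0 of 16 (median -0.21), below control at both concentrations, and none was called. Their mean level ran from 3.17 to 4.80 at 200 μM and from 3.45 to 5.33 at 400 μM at 24 h, and from 3.56 to 4.70 and from 3.21 to 4.84 at 48 h, so the groups overlapped. Nefl, a neurofilament subunit chosen after its values were seen, had medians of 8.32 and 13.7 CPM at 24 h and of 10.1 and 10.5 at 48 h, a step of 1.27-fold (interval 0.972 to 1.66). Camk2a, a kinase of excitatory synapses, had a step of 1.13-fold (interval 0.988 to 1.29). The part of these marker levels in the NRF2 and HIF values was not tested.

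Astrocyte markers had 9 of 12 above 0 (median 0.06), microglia 11 of 15 (0.04), border-associated macrophages 6 of 9 (0.03), endothelial cells 7 of 12 (0.03), meningeal fibroblasts 5 of 9 (0.02), pericytes and smooth muscle 4 of 9 (-0.04) and the oligodendrocyte lineage 5 of 16 (-0.02). The oligodendrocyte markers split by time, with 13 of 16 above 0 at 24 h (median 0.06, and 0.09 without the pair that stood apart) and 1 of 16 at 48 h (median -0.09). Endothelial markers did the reverse, with 3 of 12 above 0 at 24 h (median -0.06, with and without the pair) and 9 of 12 at 48 h (median 0.13). The medians of several of these lists had opposite signs in the rounds. In round E2 alone 1 of 15 microglial markers was above 0 (median -0.31), against 13 of 15 in round E1 alone (median 0.09), and with round as a term 7 of 15 were (median -0.00). In the same way round E2 alone had 1 of 12 endothelial markers (median -0.17), 2 of 9 of border-associated macrophages (-0.11), 1 of 9 of meningeal fibroblasts (-0.26) and 3 of 9 of pericytes (-0.16) above 0, where round E1 alone had medians of 0.05, 0.05, 0.10 and 0.10. Astrocyte markers had 9 of 12 above 0 in round E2 alone (median 0.11) and 4 of 12 in round E1 alone (-0.02).

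Tagln, a smooth muscle actin-binding protein, had a step of 0.824-fold (interval 0.677 to 1). Markers of hypothalamus and thalamus, striatum and cortex had 8 of 12, 7 of 10 and 8 of 10 above 0. The cortex list had a median of 0.08, or 0.02 with 6 of 10 above 0 without the pair that stood apart, of which the 400 μM library held its highest level, 2.98 against at most 2.63 in the other 39. At 24 h 8 of 10 cortex markers were above 0 (median 0.14, and 0.13 with 6 of 10 without the pair) and at 48 h 3 of 10 (median -0.03). Striatal markers had 7 of 10 at 24 h (median 0.23, and 0.24 without the pair) and 2 of 10 at 48 h (median -0.06). None of the 7 erythroid markers had enough counts to be tested.

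Ependyma and choroid plexus varied most from library to library. Ttr, transthyretin of the choroid plexus, ran from 0.0232 to 1489 CPM at 200 μM at 24 h, and its median was 141 CPM there and 0.272 at 400 μM. At 48 h the medians were 231 and 139 CPM. At 24 h the list's median step was -0.75, with and without the pair that stood apart. The list had a median of -0.39 over both times, with 0.43 in round E1 alone and -1.65 in round E2 alone, and both libraries that stood apart had the lowest levels of the list, 0.478 and 0.570 against 0.765 to 5.61 in the other 38. Proliferation genes had 20 of 20 below 0 over both times (median -0.10), 20 of 20 at 24 h (median -0.21, and -0.25 without the pair that stood apart) and 6 of 20 at 48 h (median 0.02). With round as an added term the median of the proliferation genes over both times was -0.04, with 1 of 20 above 0. It was -0.07 in round E1 alone and 0.05 in round E2 alone. Mki67, a marker of dividing cells, had a step of 0.95-fold (interval 0.828 to 1.09).

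Genes called against control at one time were read in the step of the other time. Calls and steps compare libraries of different times, but the calls came from a fit of 59 libraries and the steps from one of 40, with a shared batch term and spread, so the readings are not independent. Of the 50 genes raised by 400 μM Hb at 48 h, 47 had a step above 0 at 24 h, with a median of 0.14 beside -0.01 over all genes. At an unadjusted p under 0.05 in the 24 h step were 9 of these 50, beside 1.04% of all genes. Of the 31 raised by 200 μM at 48 h, 29 were above 0 at 24 h with a median of 0.15. In the other direction, 35 of the 49 genes raised by 400 μM at 24 h had a step above 0 at 48 h, with a median of 0.02. At an unadjusted p under 0.05 in the 48 h step were 0 of these 49, beside 1.14% of all genes. Of the 19 raised by 200 μM at 24 h, 13 were above 0 at 48 h with a median of 0.03. With each time fitted on its own libraries, 400 μM raised 37 genes at 48 h (the call share was 0.233%), of which 34 had a step above 0 at 24 h with a median of 0.16, beside 52.6% of all genes. For 200 μM it was 23 of 24 with a median of 0.18. Of the genes raised at 24 h in these fits, 28 of 37 at 400 μM and 13 of 16 at 200 μM had a step above 0 at 48 h, with medians of 0.03 and 0.04, beside 50.2% of all genes. Some name codes occur at both times, so libraries of 24 and 48 h may be related. Fitting each time alone therefore does not make calls and steps independent.

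Lowered genes were few. Of the 11 genes lowered by 400 μM at 48 h, 9 had a step below 0 at 24 h, and of the 6 lowered at 24 h, 4 at 48 h. Of the 7 lowered by 200 μM at 48 h, 4 were below 0 at 24 h with a median of -0.02, and of the 3 lowered at 24 h, 2 at 48 h. With each time fitted alone it was 1 of 4 and 1 of 3 for 200 μM and 7 of 10 and 3 of 4 for 400 μM. The groups overlap in genes and in the targets of NRF2, and no test of their difference between times was made.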

How the data were processed

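Bulk mRNA libraries of mouse brain slice cultures were analysed from the raw gene counts that the authors deposited, 1 file per library with whole counts for 25528 Ensembl genes, unscaled. The submitters' processing notes name featureCounts and the build GRCm39 without giving their roles, and the aligner, annotation and strand setting are not given in the sources used here. Reads of overlapping genes and similar copies may be split between them. Columns of other series were not present.

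Libraries were grouped by their treatment labels. The fits were made in edgeR 4.0.16 under R 4.3.3. Libraries were scaled by TMM, genes were kept by filterByExpr with a minimum of 10 counts and 15 in total, and genes were called by the quasi-likelihood F test at a Benjamini-Hochberg adjusted p under 0.05 over all genes. The 40 Hb libraries were fitted with concentration, time and batch, or with concentration-by-time groups and batch. Control comparisons used 59 libraries. Standard errors are the log2 fold change over the square root of F, intervals are 95% t intervals, and fold steps are from the same fits. CPM are counts scaled by TMM to a common library size, and list levels are means of log2(CPM + 0.5). Intervals do not include errors of the counting by the authors. Positions and overlaps come from GENCODE M21 and promoters from RefSeq, both on GRCm38, while the files use GRCm39.

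The genes named are those the study names, the 5 with the smallest p in each direction at a mean of at least 1 CPM where none passed, and for each list the member with the smallest p and that with the highest mean. Predicted genes were counted and not named. Other genes were chosen after their values were seen and are marked so, apart from list members named only as exceptions, Snap25 in the check of the tissue and Osgin1, both also chosen after their values were seen. The comparison, its members and the 33 gene lists were chosen with earlier results of these data known. Alternatives were DESeq2 1.42.0, RLE scaling, other low-count filters, no batch term, round or sex as terms, single batches, rounds and times, replicate blocks and leaving out single libraries. Batch 3 alone, list medians within batches and rounds, the block within each time the fit without the pair of code E1_M4 and the fits of each time alone with controls were chosen after seeing the data. The 21 libraries whose labels give no group and all other conditions were not used here.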

Additional observations from a re-analysis of the deposited data

Results flagged for a closer look

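For the 44 genes whose stability was followed, the most extreme library of each Hb group was compared with its nearest neighbour by Dixon's ratio. This is the gap over the whole range of the group, taken on log2(CPM + 0.5), while the levels beside it are given in CPM. In 176 groups of 10 libraries, 11 ratios were above the 95% critical value, where chance flags about 1 in 20 groups. Lrp1 had a ratio of 0.624 in Hb_400uM_24h, where replicate 6 stood at 3169 CPM and the next library at 1564. Tnfrsf1a had a ratio of 0.61 in Hb_400uM_24h, with replicate 3 lowest at 194 CPM and the next at 225. Pgk1 was lowest in replicate 6 of Hb_400uM_24h, at 276 CPM against 306 (ratio 0.496).

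Srxn1 was highest in Hb_200uM_24h replicate 10, at 395 CPM against 239.8 (ratio 0.553). The same library had the highest Cyp1a1 of its group, 1.71 CPM against 0.765 (ratio 0.523), and Hb_400uM_24h replicate 3, its partner in name code, had the highest Cyp1a1 of its own, 1.33 CPM against 0.680 (ratio 0.481). Cyp1a1 was lowest in Hb_400uM_48h replicate 9, at 0.107 CPM against 0.398 (ratio 0.505). G6pdx was lowest in Hb_200uM_48h replicate 7, at 173 CPM against 213 (ratio 0.474). Pi15 was highest in Hb_200uM_48h replicate 2, at 8.42 CPM against 4.87 (ratio 0.506), and in Hb_400uM_48h replicate 3, at 7.31 CPM against 4.33 (ratio 0.516). Mx1 was highest in Hb_400uM_24h replicate 10, at 0.965 CPM against 0.579 (ratio 0.483).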

How the results depend on the processing

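The count of 0 genes between 400 and 200 μM held in all 14 other settings over both times (171 to 692 genes at an unadjusted p under 0.05) and when each of the 40 libraries was left out in turn (0 to 0 genes called, 160 to 328 unadjusted). It also held in 15 settings at 24 h, 15 at 48 h and 14 for the interaction. With the replicate number of the title as a replicate block 0 genes were called (308 unadjusted), and with the library-name code as a block 0 (198 unadjusted). Libraries with the same number did not deviate together in most pairs (8 of 20 pairs correlated above 0.1, median -0.02), so the numbers were not read as pairs. Numbers 9 and 10 gave the same correlation at each time, so the 20 pairs are not all independent values. Of all 400 pairs of a 200 and a 400 μM library, of any time, 166 correlated above 0.1. Libraries of the same code and time correlated above 0.1 in 10 of 18 pairs (median 0.146, from -0.424 to 0.768). Those of the same code and different times did so in 4 of 8 pairs (median 0.148, from -0.449 to 0.524). Of 16 codes, 12 hold both concentrations, and since the labels do not say what a code is, p-values may treat related libraries as independent. Against control, round as an added term moved the count to 85 at 400 μM at 24 h, to 58 at 200 μM at 48 h and to 100 at 400 μM at 48 h, and the cause was not tested.

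Of 611 gene values under other settings, 600 kept their sign, and of 1760 with 1 library left out, 1759 did. These genes include some picked for a small p or after their values were seen. The refits reuse the same libraries, so kept signs were likely from the start and are no independent support. In round E2 alone the log2 step was -0.12 for Hmox1, -0.0184 for Lrp1, 0.00771 for Ddit4 and 0.0464 for Mki67. In batch 3 alone it was -0.0162 for Srxn1, -0.0521 for Osgin1, 0.0535 for Pi15 and 0.42 for Mx1. It was 0.0268 for Cyp1a1 in batch 2 alone, and for Ttr 0.31 in round E1 alone and 0.88 with the library-name block. Leaving out single libraries moved the step of Lrp1 between -0.0149 and 0.0997. Batch 3 holds 2 libraries a group, so its values carry little weight.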
